A study of Rattus norvegicus with 6 samples.

Results

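Microtubule genes of rat oligodendrocyte progenitor cells were examined for their response to fibrinogen: the tubulins, the proteins that fold, nucleate, stabilise, cap or sever the polymer, and the kinesin, dynein and dynactin subunits that carry cargo along it. Members were taken by gene symbol (alpha, beta, gamma, delta and epsilon tubulins with a number, Tubgcp, Tbca to Tbce, stathmins, a set of microtubule-associated proteins (MAPs), tau, end-binding proteins, Tppp, the Kif1, Kif3, Kif5, Kif13 and Kif21 kinesins with a letter, kinesin light chains, dynein, dynactin, katanin and numbered CLIP genes), a rule that uses no measured value. The rule gave 81 of the 13355 genes measured, each with 1 probe set. All 81 entered the test, since no gene was filtered out for a low value. The members and the lists by role were, however, chosen with earlier results of these data known. Oligodendrocyte progenitor cells (OPCs) are the dividing glial cells that give rise to the myelin-forming oligodendrocytes, and fibrinogen is the clotting protein of blood plasma. The cells were primary cultures from neonatal rat pups of postnatal day 1 to 2, kept for 2 days in a proliferation medium with NT3 and PDGF before treatment. There were 3 arrays of unstimulated cells, titled 48 h like the others, and 3 arrays of cells that received fibrinogen for 48 h in differentiation medium. The medium of the unstimulated cells is not given separately in the labels, nor are the strain, the fibrinogen dose, the purity of the cultures or whether the replicates came from separate cultures, so the p-values measure the spread between these arrays, which may be technical. The series title asks whether fibrinogen activates BMP signaling in OPCs and inhibits remyelination.

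A microtubule is a hollow polymer of alpha- and beta-tubulin dimers, nucleated by gamma-tubulin ring complexes and in constant exchange with free dimers. Stathmins hold dimers out of the polymer and promote its shrinkage, whereas structural MAPs bind along the lattice and stabilise or bundle it. Kinesins and dynein walk along it, and in oligodendrocytes microtubules carry messenger RNA and membrane into the long processes that wrap axons. Differentiating oligodendrocytes are known for a stabilised microtubule array and for the bundling protein TPPP.

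With fibrinogen, transcripts of 3 of 4 stathmins rose and those of 6 of 14 structural MAPs fell. None of the 16 kinesin and kinesin light chain genes and 14 dynein and dynactin genes passed the test. The share of all genes called (7.16%) would itself give few calls among so few genes. In limma, 3 of the 81 members rose and 6 fell at an adjusted p under 0.05 (Benjamini-Hochberg over all 13355 genes). Of all genes tested, 7.16% were called, 4.16% higher and 3.00% lower, so that the members' 3 higher calls (3.70% of 81) lay near the background and their 6 lower calls (7.41%) above it. The 3 that rose were Stmn1, Stmn2 and Stmn3, and the 6 that fell were Tppp, Map6d1, Map1b, Map7, Map6 and Map7d1. The median log2 fold change (fibrinogen over control) was 0.00 over the 81 members and 0.003 over all genes. The 3 fibrinogen arrays lay all above the 3 control arrays for 16 members (19.8%, against 15.0% of all genes) and all below them for another 16 (19.8%, against 12%). Groups without overlap thus made up 32 of 81 members, against 27.0% of all genes. The members were brighter than genes at large: 10 of 81 were below the median probe in control, against 5815 of 13355. When only genes above the median brightness were tested, 21.8% of them were called. The part of brightness in the members' shares was not tested. Replicate arrays were close, with a median SD of 0.0864 over the members and groups, and the largest was that of Map6d1 in control (0.423). In these bulk cultures, fewer cells of a type and less RNA per cell cannot be told apart.

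**Figure D1:**
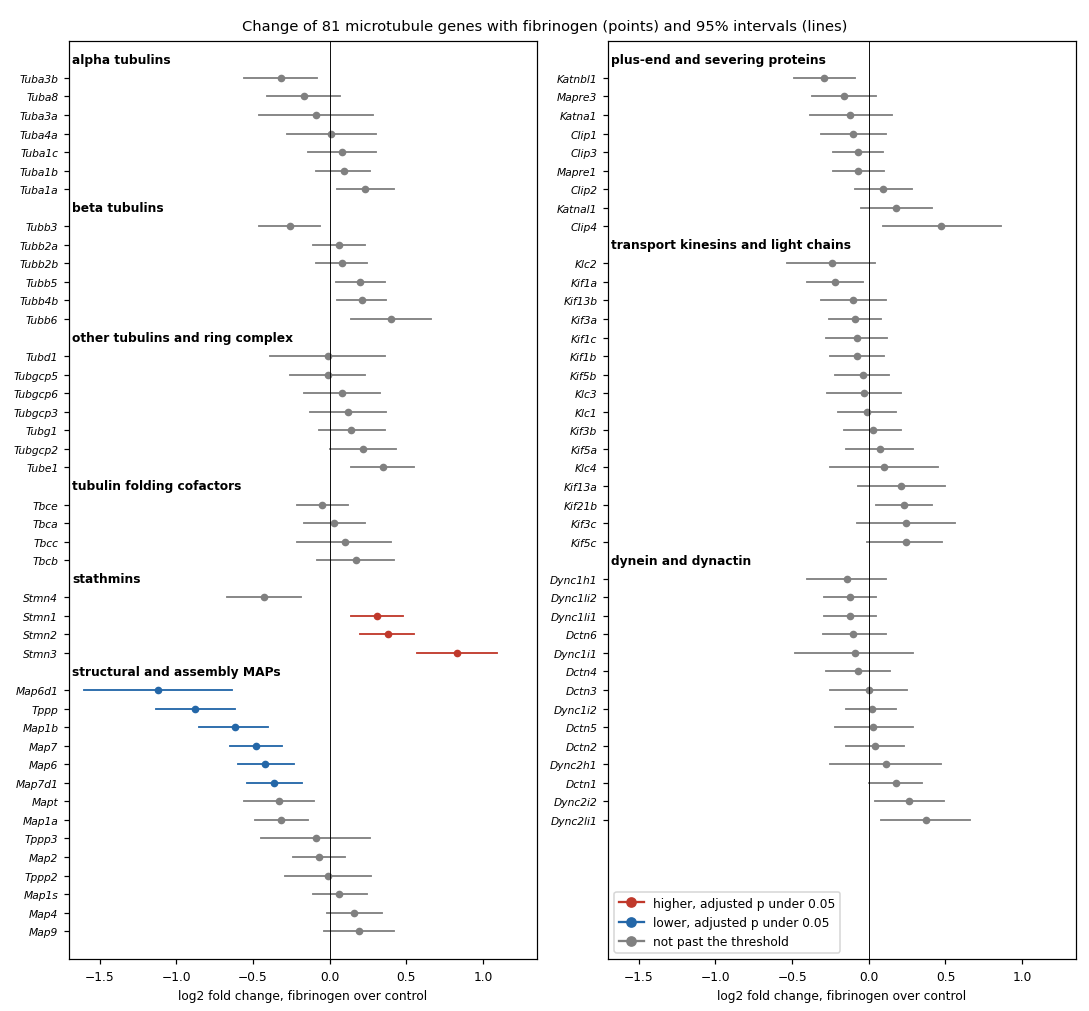
Log2 fold change (x axis, fibrinogen over control) of each of the 81 members, grouped by role, with 95% intervals from limma; red and blue mark the genes past an adjusted p of 0.05. The 3 red points are stathmins and the 6 blue points are structural MAPs, while the other 7 groups hold no coloured point.

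The starts of the genes with the smallest p in each direction are shown because these genes set the pattern. RefSeq (build GRCr8) gave a promoter window for 67 of the 81 members. Printed are the 250 bases before the start for the first 2 such members with a window in each direction, with E-boxes (CANNTG, the site class of basic helix-loop-helix factors, which Id proteins antagonise) and GC boxes (GGGCGG, the site of SP1 and its relatives) on either strand in capitals. The windows are chr3:188802495-188802744, minus strand for Stmn3, chr5:151964929-151965178, plus strand for Stmn1, chr1:31109704-31109953, minus strand for Tppp and chr1:16729877-16730126, plus strand for Map7.
Stmn3: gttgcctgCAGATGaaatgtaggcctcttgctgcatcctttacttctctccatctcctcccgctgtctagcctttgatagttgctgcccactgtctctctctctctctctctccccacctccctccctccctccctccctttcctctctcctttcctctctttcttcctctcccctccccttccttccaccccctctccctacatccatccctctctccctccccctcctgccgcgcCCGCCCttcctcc
Stmn1: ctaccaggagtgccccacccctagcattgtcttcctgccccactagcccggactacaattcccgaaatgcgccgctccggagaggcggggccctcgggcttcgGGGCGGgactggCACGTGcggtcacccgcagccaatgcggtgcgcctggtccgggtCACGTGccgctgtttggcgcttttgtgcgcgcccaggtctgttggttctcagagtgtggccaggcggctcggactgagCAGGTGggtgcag
Tppp: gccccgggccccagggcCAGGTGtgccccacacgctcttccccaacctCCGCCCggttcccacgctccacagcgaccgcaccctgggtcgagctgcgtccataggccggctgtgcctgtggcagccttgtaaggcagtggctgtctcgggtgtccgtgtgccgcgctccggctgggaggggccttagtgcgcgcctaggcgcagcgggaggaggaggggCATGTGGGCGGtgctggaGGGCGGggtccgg
Map7: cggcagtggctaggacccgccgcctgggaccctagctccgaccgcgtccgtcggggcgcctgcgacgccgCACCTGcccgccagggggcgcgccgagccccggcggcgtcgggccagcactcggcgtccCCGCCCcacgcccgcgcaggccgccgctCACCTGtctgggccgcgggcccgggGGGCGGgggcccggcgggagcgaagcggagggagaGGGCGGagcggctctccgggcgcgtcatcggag

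Both motif classes were common. In Tppp the E-box at -31 to -26 (counted from the start, the base before it being -1) shares its last base with the GC box at -26 to -21. Stmn1 held 3 E-boxes and 1 GC box, Stmn3 held 1 of each, Tppp held 2 and 3, and Map7 held 2 and 3. An E-box was present in 58.2% of the 67 member windows and in 65.5% of all 33469 windows of the table. A GC box was present in 59.7% of member windows and 30.5% of all windows. Member windows were richer in G and C (median 60.4%, against 51.2%). The part of this in the shares of the GC box, and of the GC-rich SMAD site below, was not tested. For members 1 window per gene was kept, whereas the share over all windows counts every window listed. The GC-rich SMAD site GGCGCC, a site class of BMP-activated SMAD proteins, was in 19.4% of member windows and 8.69% of all windows, and among the 7 called members with a window only Map7 held it. The other motifs searched on both strands were the TATA box TATAAA (13.4% of member windows, 12.9% of all), the CCAAT box CCAAT (38.8% and 34.0%), the SOX site AACAAT (7.46% and 10.3%) and the E2F site TTTCCCGC (none of 67, and 0.813% of all). These matches are letters in a window and say nothing of binding.

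Stathmins, the sequesterers of free tubulin, had 3 of 4 members past the test, all higher. Stmn3 (the SCG10-like stathmin, a membrane-bound form known from neurons) stood at a log2 expression of 6.94, 7.32 and 7.18 on control arrays 1 to 3 and 7.91, 8.05 and 7.98 on fibrinogen arrays 1 to 3. Every fibrinogen array was above every control array, and the gap between the groups was wider than the spread within either. It rose 1.78-fold (log2 fold change 0.83, SE 0.11, limma adjusted p = 0.00671), and the call held without any single array (log2 fold change 0.73 to 0.92). With the unmoderated test, which uses each gene's own variance alone, it did not pass (adjusted p = 0.0529).

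Stmn2 (SCG10, another membrane-bound stathmin of growing axons) was at 7.35, 7.23 and 7.37 in control and 7.66, 7.69 and 7.73 with fibrinogen on the log2 scale. The groups did not overlap, and the rise was 1.30-fold (log2 fold change 0.38, SE 0.08, limma adjusted p = 0.0297). Stmn1 (stathmin 1 or Op18, the cytosolic form, abundant in dividing cells) was at 11.09, 11.07 and 11.17 in control and 11.40, 11.40 and 11.46 with fibrinogen. It rose 1.24-fold, also without overlap (log2 fold change 0.31, SE 0.07, limma adjusted p = 0.0469). The calls of Stmn1 and Stmn2 were both lost without any one of the 6 arrays, with adjusted p of 0.0921 to 0.149 for Stmn1 and 0.0595 to 0.108 for Stmn2. That of Stmn1 was also lost with arrays centred on their medians, with a robust variance model and when all probes were tested (adjusted p = 0.0718, 0.0505 and 0.0739).

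Stmn4 (RB3, the remaining stathmin) lay on the other side of 0. Its log2 expression was 9.58, 9.62 and 9.58 in control and 8.96, 9.30 and 9.24 with fibrinogen. All 3 fibrinogen arrays were below the control arrays, with fibrinogen 1 the lowest, and the change of -0.43 (95% interval -0.67 to -0.19) did not pass (limma adjusted p = 0.0530). It passed as lower with each array centred on its median (adjusted p = 0.0385), with either brightness filter (0.0297 and 0.0123) and with a variance that follows brightness (0.00220), and in none of the other alternatives. Whether its change differs from that of its paralogs was not tested.

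Among structural and assembly MAPs, the stabilisers of the lattice, 6 of 14 members fell, none rose and 8 did not pass, and 11 of the 14 changes were negative (median log2 fold change -0.32, beside 0.003 over all genes). Tppp (tubulin polymerization promoting protein, or p25, which bundles microtubules and is enriched in oligodendrocytes) was at 9.42, 9.58 and 9.40 in control and 8.53, 8.45 and 8.79 with fibrinogen. The lowest control array was above the highest fibrinogen array by more than the range of either group. It fell 1.84-fold (log2 fold change -0.88, SE 0.11, limma adjusted p = 0.00556) and was the 1 member that kept its call under every alternative tried (highest adjusted p = 0.0478).

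Its paralogs Tppp2 and Tppp3, both dimmer than the median probe in control, did not pass. Tppp3 had means of 4.56 ± 0.23 without and 4.47 ± 0.22 with fibrinogen (SD, n = 3), and the log2 fold change was -0.09 (95% interval -0.45 to 0.26). Tppp2 had a log2 fold change of -0.01 (95% interval -0.29 to 0.27). Both intervals lie above the estimate for Tppp, but no test of the difference was run.

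Map6d1 (MAP6 domain containing 1, a small membrane-anchored relative of MAP6) had the largest change among the members. Its log2 expression was 9.11, 9.03 and 9.80 in control and 8.04, 8.22 and 8.32 with fibrinogen. Control 3 stood well above the other control arrays, and the groups did not overlap. It fell 2.17-fold (log2 fold change -1.12, SE 0.20, limma adjusted p = 0.0218). Without control 3 the estimate was nearer 0 (-0.88) and still passed, whereas the call was lost without any one fibrinogen array (adjusted p up to 0.0898) and with the unmoderated test (adjusted p = 0.123).

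Map6 (STOP, which makes microtubules resistant to cold) was at 8.0, 8.15 and 8.18 in control and 7.69, 7.67 and 7.72 with fibrinogen. The fibrinogen arrays sat close together below all control arrays. It fell 1.33-fold (log2 fold change -0.42, SE 0.08, limma adjusted p = 0.0254), a call that held without control 1 but was lost without any one of the other 5 arrays (adjusted p up to 0.0949) and with the unmoderated test (adjusted p = 0.0507).

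Map1b (a large MAP of growing processes, also made by oligodendrocytes) was at 10.61, 10.87 and 10.71 in control and 10.12, 10.20 and 10.00 with fibrinogen. It fell 1.54-fold without overlap (log2 fold change -0.62, SE 0.10, limma adjusted p = 0.0121), a call lost without fibrinogen 1 or fibrinogen 3 (adjusted p up to 0.0562) and with the unmoderated test (adjusted p = 0.0604). Map1a (its paralog of mature neurons) was at 8.73, 8.87 and 8.81 in control and 8.47, 8.45 and 8.54 with fibrinogen, without overlap. Its change of -0.32 (95% interval -0.49 to -0.14) missed the threshold (limma adjusted p = 0.0516), and passed in the same 4 alternatives as Stmn4 (adjusted p 0.00553 to 0.0306). Map1s, the short relative of both, was at 0.06 (95% interval -0.11 to 0.24).

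Map7 (ensconsin, which recruits kinesin-1 to the lattice) was at 9.54, 9.52 and 9.47 in control and 9.06, 8.97 and 9.06 with fibrinogen. Both groups were tight, and it fell 1.39-fold (log2 fold change -0.48, SE 0.07, limma adjusted p = 0.0107), a call lost without fibrinogen 2 (adjusted p = 0.0523). Its relative Map7d1 was at 8.16, 8.17 and 8.02 in control and 7.71, 7.79 and 7.77 with fibrinogen. It fell 1.28-fold without overlap (log2 fold change -0.36, SE 0.08, limma adjusted p = 0.0382), and this call was lost without any one of the 6 arrays (adjusted p up to 0.133), with the unmoderated test (adjusted p = 0.0594) and when all probes were tested (adjusted p = 0.0601).

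**Figure D2:**
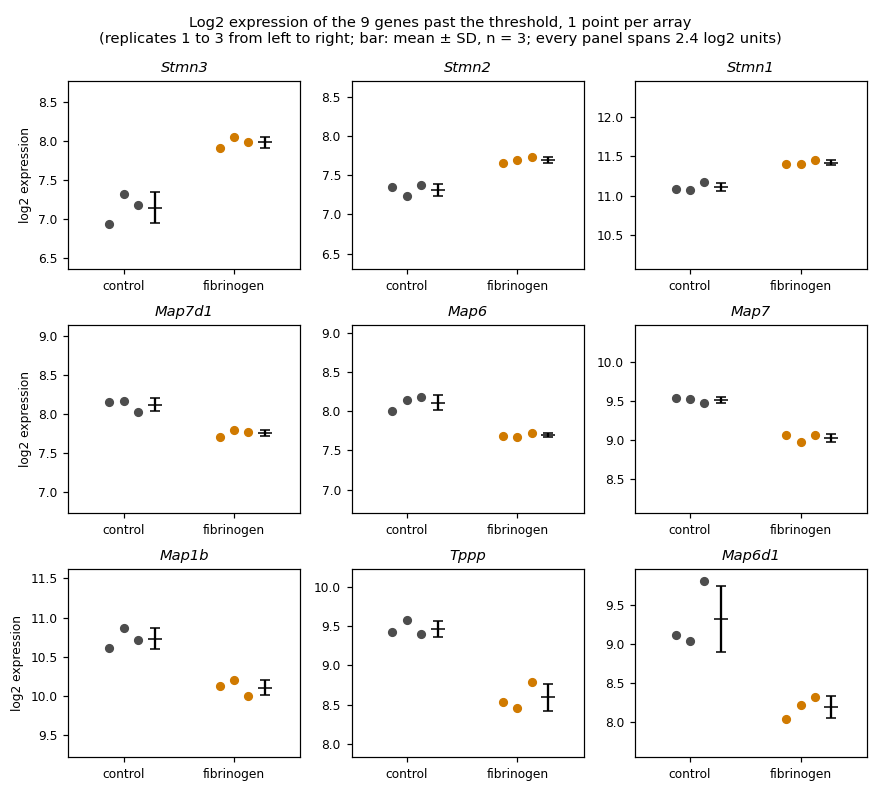
Log2 expression (y axis, each panel spanning the same number of log2 units) of the 9 members past the threshold on each control and fibrinogen array, with mean ± SD (n = 3) beside the points. The groups are separate in all 9 panels, and control array 3 of Map6d1, at 9.80, stands apart from the other 2 of its group.

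The remaining structural MAPs did not pass. Mapt (tau) was at 8.78, 8.89 and 9.04 in control and 8.69, 8.48 and 8.56 with fibrinogen, all 3 of the latter lower, with a log2 fold change of -0.33 (95% interval -0.56 to -0.10, limma adjusted p = 0.104). It passed without the genes below the median brightness (adjusted p = 0.0299) and with a variance that follows brightness (0.0153). Map2 (the dendritic MAP) had an estimate of -0.07 (95% interval -0.24 to 0.10). Map4 (the MAP of most non-neuronal cells) was at 9.36, 9.50 and 9.47 in control and 9.67, 9.59 and 9.55 with fibrinogen, and its estimate was 0.16 (95% interval -0.02 to 0.34). Map9, at 0.19 (95% interval -0.04 to 0.42), was the highest estimate of the group.

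None of the 7 alpha and 6 beta tubulins passed the test in limma. Of the former 2, and of the latter 4, had an unadjusted p under 0.05. Such a p was common among the 13355 genes tested. Ranked by limma p over all genes, Tubgcp2 (unadjusted p = 0.0477) stood at 2749 and Dctn1 (unadjusted p = 0.0509) at 2835. Whether any list, here or below, held more such genes than that background was not tested. Tubulin genes are nearly identical in their coding parts and the probe sequences were not used here, so signal shared between isotypes cannot be told apart. The most different was Tubb6 (a beta isotype of many non-neuronal cells), at 7.28, 6.97 and 7.08 in control and 7.64, 7.51 and 7.38 with fibrinogen. Its arrays did not overlap, with a log2 fold change of 0.40 (95% interval 0.14 to 0.66, limma adjusted p = 0.0805). Tubb5 (the common beta isotype of dividing cells) was at 11.15, 11.21 and 11.14 in control and 11.37, 11.38 and 11.36 with fibrinogen, and Tubb4b (another widely made isotype) was at 9.91, 9.85 and 9.86 and at 10.12, 10.07 and 10.07. Both sets of arrays were tight and separate, with log2 fold changes of 0.20 and 0.21 (limma adjusted p = 0.139 and 0.126).

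Tubb3 (the isotype used as a neuron marker) was the only beta tubulin below 0, at 9.41, 9.51 and 9.29 in control and 9.13, 9.10 and 9.21 with fibrinogen (log2 fold change -0.26, 95% interval -0.46 to -0.06, limma adjusted p = 0.135). Tubb2a and Tubb2b, a closely related pair, were at 0.06 and 0.08. Tuba1a (the main alpha isotype of the developing brain) was at 12.19, 12.25 and 12.23 in control and 12.37, 12.44 and 12.56 with fibrinogen, separate but not past the threshold (log2 fold change 0.23, 95% interval 0.05 to 0.42, limma adjusted p = 0.143). Tuba1b and Tuba1c were at 0.09 and 0.08, and 4 of the 7 alpha genes (Tuba3a, Tuba3b, Tuba4a and Tuba8) were dimmer than the median probe in control. Tuba4a had a log2 fold change of 0.01 (95% interval -0.28 to 0.30), with a sign that turned when arrays were centred.

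With a variance that follows the brightness of a gene (limma's intensity trend), Tuba1a, Tubb4b, Tubb5 and Tubb6 passed as higher and Tubb3 as lower. That setting called 12.3% of all genes, and 7 members as higher and 12 as lower. The same 5 tubulins passed without the genes below the median brightness, and Tubb4b and Tubb5 passed with the unmoderated test.

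**Figure D3:**
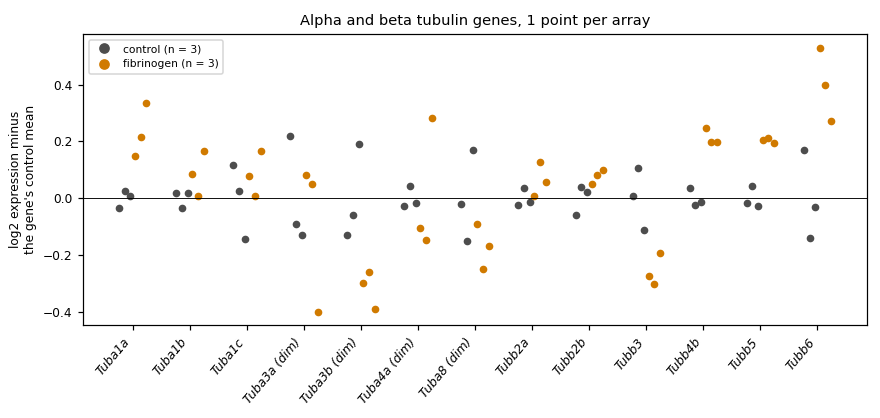
Log2 expression of the 13 alpha and beta tubulin genes on each array, minus the gene's own control mean (y axis), with control arrays in grey and fibrinogen arrays in orange; genes dimmer than the median probe are marked. Fibrinogen arrays lie above the control arrays for Tuba1a, Tubb2b, Tubb4b, Tubb5 and Tubb6 and below them for Tubb3 and Tuba3b.

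Of 7 genes of other tubulins and the ring complex, which nucleate microtubules and build centrioles, none passed in limma (2 at an unadjusted p under 0.05, and none with the intensity trend). Of 4 tubulin folding cofactors, none passed by either setting or at an unadjusted p under 0.05. Tubg1 (gamma-tubulin, the nucleator) had means of 9.03 ± 0.10 without and 9.18 ± 0.10 with fibrinogen (SD, n = 3), which differ by 0.14 (95% interval -0.07 to 0.36). Of its ring complex partners, Tubgcp2, Tubgcp3, Tubgcp5 and Tubgcp6 had estimates between -0.01 and 0.22. Tube1 (epsilon-tubulin, a centriole protein) was at 5.97, 6.06 and 5.85 in control and 6.36, 6.22 and 6.34 with fibrinogen, without overlap and with a log2 fold change of 0.35 (limma adjusted p = 0.0603). The folding cofactors Tbca, Tbcb, Tbcc and Tbce lay between -0.05 and 0.17, and Tbcb, the alpha-tubulin cofactor with the highest estimate, had a 95% interval of -0.08 to 0.42.

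Of 9 plus-end and severing proteins none passed in limma (2 at an unadjusted p under 0.05, and 1 with the intensity trend), and their estimates ran from -0.29 to 0.47. Mapre1 (EB1, the core end-tracking protein) had means of 10.00 ± 0.04 without and 9.93 ± 0.04 with fibrinogen (SD, n = 3), which differ by -0.07 (95% interval -0.23 to 0.10). Clip1 (CLIP-170, a plus-end linker) was at -0.10 (95% interval -0.31 to 0.11). Katnbl1, a katanin regulator, was lower on all 3 fibrinogen arrays (log2 fold change -0.29, limma adjusted p = 0.0968). Clip4 had the widest difference, at 5.46, 6.03 and 6.0 in control and 6.45, 6.18 and 6.28 with fibrinogen, and control 1 set most of its spread (log2 fold change 0.47, SE 0.16, limma adjusted p = 0.150). Its control mean of 5.83 was near the median probe (5.78).

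None of the 16 transport kinesins and kinesin light chains and none of the 14 dynein and dynactin subunits passed, in either direction (limma; 2 of the 16 and 2 of the 14 had an unadjusted p under 0.05, and with the intensity trend 1 kinesin and no dynein or dynactin gene passed). The kinesin estimates ran from -0.24 to 0.24 on the log2 scale, with 7 above and 9 below 0. Kif1a (a fast carrier of vesicle precursors) was at 9.75, 9.86 and 9.69 in control and 9.60, 9.53 and 9.51 with fibrinogen, the 1 kinesin whose fibrinogen arrays were all lower (log2 fold change -0.22, 95% interval -0.40 to -0.04, limma adjusted p = 0.161). Kif1b, which carries messenger RNA into oligodendrocyte processes, was at 9.72 ± 0.05 and 9.65 ± 0.06 (SD, n = 3), a difference of -0.08 (95% interval -0.25 to 0.10). Kif21b was the 1 kinesin whose fibrinogen arrays were all higher, with a log2 fold change of 0.23 (limma adjusted p = 0.143). Without the genes below the median brightness, Kif1a passed as lower and Kif21b as higher.

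The heavy chains of conventional kinesin-1 had estimates on both sides of 0. Kif5a was at 0.07 (95% interval -0.15 to 0.29), Kif5b (the ubiquitous form) at -0.04 (95% interval -0.22 to 0.13) and Kif5c at 0.24 (95% interval -0.01 to 0.48). Klc1, their main light chain, had means of 9.71 ± 0.09 without and 9.70 ± 0.05 with fibrinogen (SD, n = 3), and the interval of its change, -0.20 to 0.18, bounds it to less than the falls estimated for the 6 called MAPs. Kif3a (of the heterotrimeric kinesin-2) was at -0.09 and Kif13b at -0.10, with 95% intervals of -0.26 to 0.08 and -0.31 to 0.11.

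Dynein and dynactin estimates ran from -0.14 to 0.37. Dync1h1 (the heavy chain of cytoplasmic dynein 1) had means of 9.14 ± 0.13 without and 9.0 ± 0.15 with fibrinogen (SD, n = 3; log2 fold change -0.14, 95% interval -0.40 to 0.11). Dync1li1 and Dync1li2, its light intermediate chains, were each lower on all 3 fibrinogen arrays, with log2 fold changes of -0.12 (limma adjusted p = 0.427 and 0.399). Dync1i1, a dim intermediate chain gene, was at -0.09 (95% interval -0.48 to 0.29). Dctn1 (p150Glued, the dynactin arm that grips the microtubule) was at 8.07, 8.24 and 8.15 in control and 8.33, 8.33 and 8.33 with fibrinogen, higher on all 3 arrays by 0.18 (limma adjusted p = 0.240). The highest estimates belonged to Dync2li1 and Dync2i2, at 0.37 and 0.26 (limma adjusted p = 0.133 and 0.164), both without overlap. Dync2li1 was near the median probe in control (5.85 against 5.78). Both genes encode subunits of the dynein 2 motor of cilia. Dync2h1, the heavy chain of the same motor, was at 0.11 (95% interval -0.25 to 0.47).

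Other microtubule genes gave a context for these values. Among 10 measured mitotic kinesins, which drive spindle assembly and cytokinesis, 7 rose and none fell, against 4.16% and 3.00% of all genes. All 10 were higher without overlap between groups, against 15.0% of all genes (median log2 fold change 0.44). Kif18b and Kif4a rose by 0.73 and 0.57 on the log2 scale (limma adjusted p = 0.00521 and 0.0228), Kif11 by 0.42 and Kif20a by 0.48. Of 9 further kinesins none passed in limma (median 0.03; 1 at an unadjusted p under 0.05, and 1 with the unmoderated test). Of 20 motor adaptors and dynein light chains only Dynll2 (a dynein light chain) passed, and it fell by 0.43 (limma adjusted p = 0.0158). Of 14 tubulin-modifying enzymes only Sirt2 (a tubulin deacetylase abundant in oligodendrocytes) passed, and it fell by 0.35 (limma adjusted p = 0.0293). At an unadjusted p under 0.05, 3 of the 14 were higher and 4 lower, and 3 passed with the intensity trend. Atat1 and Vash2 were also lower on all 3 fibrinogen arrays, by 0.30 and 0.59 (limma adjusted p = 0.0647 and 0.0521). Of the 14 changes, 9 were above 0 and 5 below. Of 17 other end-binding, severing and lattice proteins, Dclk1 (a doublecortin-like kinase that binds microtubules) and Cdk5rap2 (a centrosome protein that recruits gamma-tubulin) rose by 1.03 and 0.71 (limma adjusted p = 0.00141 and 0.00304), and 15 did not pass. Of these 17, 8 had an unadjusted p under 0.05 (6 higher, 2 lower) and 5 passed with the intensity trend. For the 20 adaptors and light chains these counts were 3 (1 higher, 2 lower) and 1.

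**Figure D4:**
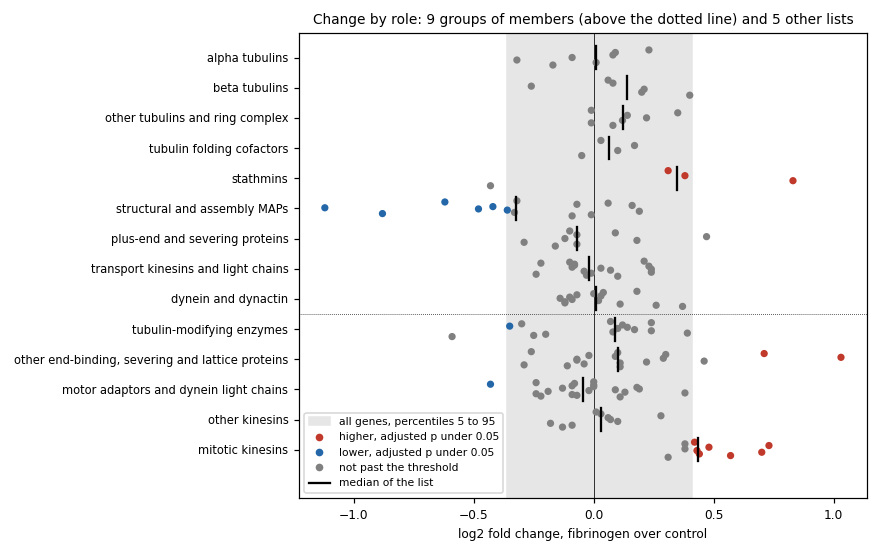
Log2 fold change (x axis, fibrinogen over control) of the members by role and of 5 further lists of microtubule genes, 1 point per gene, with a black bar at the median of each list and a grey band from -0.36 to 0.41 that holds the values between percentiles 5 and 95 of all genes. Structural MAPs extend to the left of the band, and mitotic kinesins lie at its right edge, with a median of 0.44.

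Markers of cell types and of division moved in the same arrays, in which 4.16% of all genes were called higher and 3.00% lower. Of 7 measured oligodendrocyte markers, 4 fell and none rose (Mag, Cldn11, Cnp and Mbp), and their summed linear level ran from 9818 to 10441 in control and from 7070 to 7711 with fibrinogen, beside the falls of Tppp and the other MAPs. Of 9 dividing-cell markers, 7 rose and none fell (summed level 3638 to 3820 in control, 5023 to 5363 with fibrinogen), beside the rise of Stmn1. Of 18 neuron markers, 3 rose (Elavl4, Ina and Gap43) and 3 fell (Syt1, Eno2 and Elavl3), with summed levels of 5596 to 5908 and 5818 to 5987, which overlap, beside the stathmins, Map1b and Tubb3. Of 8 astrocyte markers, 3 rose (Gfap, Slc1a2 and Slc1a3) and 5 did not pass, with 3 changes below 0 and a median log2 fold change of 0.11. Their summed level was 6827 to 7195 in control and 8565 to 8800 with fibrinogen. No listed marker was at 0 on any array, and the part of these markers in the members' changes was not tested. Of the labelled cell type, 6 of 6 measured progenitor markers were brighter than the median probe in control. With fibrinogen, 3 of them (Cspg4, Pdgfra and Olig1) rose and 3 did not pass. The latter were Ptprz1, Gpr17 and Sox10, with log2 fold changes of 0.27, -0.14 and -0.09. In control, 7 of 8 microglia, 4 of 4 endothelial and 4 of 5 pericyte and fibroblast markers were dimmer than the median probe. Among these 3 lists only the microglia marker Itgam passed, as lower (log2 fold change -0.60, limma adjusted p = 0.0357).

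How many members passed depended on single arrays and on the variance model. Without any one array, 1 member (Stmn3) was higher and 2 to 5 were lower, while the share of all genes called ran from 2.68% to 4.43%. Without the genes below the median brightness, which leaves 64 members and 21.8% of the genes called, 8 members were higher and 12 lower. When each array was centred on its own median, 2 members were higher and 8 lower (7.11% of all genes called), and of all called genes 434 were higher and 516 lower, against 555 and 401 without centring.

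**Figure D5:**
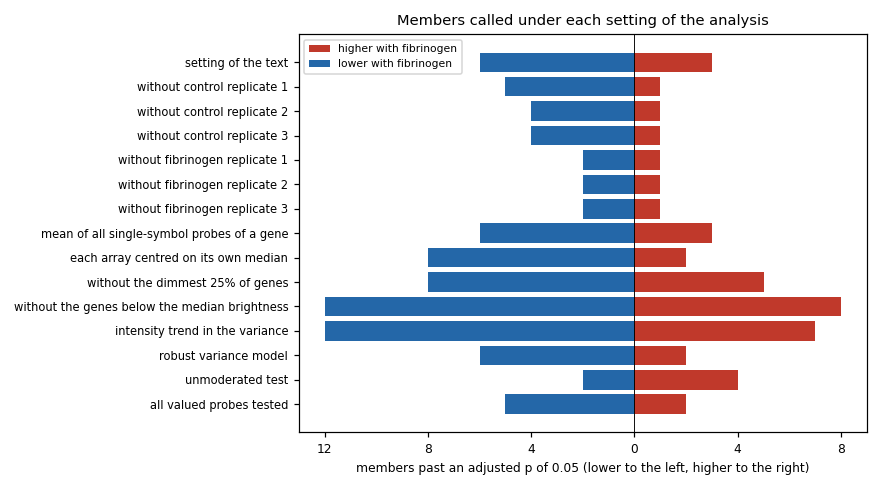
Number of members past an adjusted p of 0.05 (x axis, lower to the left in blue and higher to the right in red) under each setting of the analysis except the fit with replicate numbers, which is not drawn. The lower calls run from 2 to 12 and the higher calls from 1 to 8.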

How the data were processed

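RNA was amplified and biotin-labelled with NuGEN kits and hybridised to Affymetrix rat arrays, per the labels' protocols. The deposited values are log2 expression per probe set and array. The submitters' processing notes name RMA and limma, with no version; other steps and the build are not given in the sources used here. Values were present for 23631 of 26312 probe rows, with array medians of 5.78 to 5.84; no detection calls accompany them, so 10 members dimmer than the median probe in control may lie near background.

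Probes were named from the platform annotation (single-symbol probes, highest mean per gene); all 81 members matched a RefSeq gene number. The 2 groups were tested in limma 3.58.1 under R 4.3.3 (lmFit, eBayes, two-sided, no covariate), with Benjamini-Hochberg adjustment over 13355 genes at a threshold of 0.05. The fit was also run on data simulated from its own variance estimates, which checks the code and not the assumptions of the model. The number of arrays limits precision: the median SE was 0.104 over all genes and 0.0901 over members. The same-numbered arrays deviated from their group means with correlations of 0.02, -0.14 and -0.07, so the numbers were not taken to pair them. No 2 arrays were identical throughout.

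The members and lists were chosen with earlier results of these data known. Named are all called members and 35 of 38 members listed by role (the others were not analysed here), up to 4 called genes per other microtubule list, and, chosen after their values were seen, other members near the threshold. Summed linear levels are sums of antilogs. The alternatives tried were the fit with replicate numbers, leaving out each array, the mean of a gene's probes, centring, 2 brightness filters, 3 variance models and all probes tested.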

Additional observations from a re-analysis of the deposited data

How the results depend on the processing

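The 9 called members kept their direction under every alternative, but most calls did not hold. The kept direction was no test, since leaving out 1 array cannot turn it where the groups do not overlap. Apart from centring, the other alternatives leave these estimates as they were. With the replicate block, 1 member was higher (Stmn3) and 3 lower (Map1b, Map6d1 and Tppp), with 343 genes called in all; the same-numbered arrays do not deviate together, so this is a fit with a number only. Leaving out 1 array gave 1 member higher, 2 to 5 lower and 358 to 592 genes in all. Without the dimmest 25% of genes, 5 members were higher and 8 lower, with 12.9% of all genes called. Without the genes below the median brightness, 8 were higher and 12 lower (1455 genes in all, or 21.8%), with fewer genes tested. With the intensity trend, 7 were higher and 12 lower (1639 in all), and with the unmoderated test, 4 were higher and 2 lower (500 in all). Tuba4a turned to -0.04 with centring. Among members near 0, leaving out 1 array gave log2 fold changes of -0.23 to 0.07 for Dync1i1, -0.22 to 0.03 for Tppp3, -0.13 to 0.09 for Tuba4a, -0.05 to 0.04 for Klc1 and -0.01 to 0.14 for Kif5a. Of the alternative values of single named members, 477 kept direction and side of the threshold, 43 lost the call, 22 gained it and 8 changed sign. The first count does not measure stability. It includes the mean over probes, which repeats the estimate of a member with 1 probe set, and members far from the threshold. Signal over background limits what can be said of the dim members, and the cause of the other shifts was not tested.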
